A study of Mus musculus with 18 samples.

Results

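Integrins and laminins were followed across 2 mouse pancreatic tumour cell lines in which the mitochondrial calcium uniporter gene Mcu had been disrupted or kept. The genes were taken by symbol: every row named as an integrin alpha or beta chain or as a laminin alpha, beta or gamma chain. This gave 37 genes of 35642 in the table, namely 18 integrin alpha, 8 integrin beta and 11 laminin genes. Both lines came from KPCY mice, which carry a mutant Trp53 allele, Pdx1-Cre and a yellow fluorescent reporter, and all cells were cultured and untreated. Line 1151 had lost Mcu through Cre and was measured with an empty vector (called knockout-labelled here) and with MCU put back (re-expressing), both under puromycin. Line 2838 was measured as CRISPR knockout clones 17 and 42 and as wild-type clones 15 and 22, the wild-type clones carrying an empty vector. Groups are called by these labels. Each group had 3 libraries, 18 in all. Every 2838 group is a single clone, and nothing in the labels ties the libraries of a group to separate cultures. Tests between libraries may therefore measure technical spread alone.

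Integrins are cell surface receptors made of one alpha and one beta chain that tie the extracellular matrix to the actin or keratin cytoskeleton. Laminins are cross-shaped trimers of one alpha, one beta and one gamma chain and are the main adhesive proteins of basement membranes. Itga3, Itga6 and Itga7 form laminin receptors, Itga1 and Itga2 form collagen receptors, and Itga5 and Itgav form receptors for RGD motifs in fibronectin and vitronectin. In epithelia, Itga6 with Itgb4 anchors hemidesmosomes to a laminin that holds Lama3 and Lamb3.

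The values were TPM, which correct for transcript length and sum to one total per library, so levels can be compared between genes but the depth is unknown. Line 1151 was batch 1 and line 2838 batch 2, so levels in the lines are given side by side and tested only within a line. Mcu RNA averaged 15.0 ± 1.6 TPM in 1151 knockout-labelled and 14.3 ± 1.1 TPM in re-expressing libraries (SD, n = 3 each). It averaged 119 ± 4.8 TPM in 2838 knockout-labelled clone 17, 11.4 ± 0.89 TPM in clone 42, 75.2 ± 6.4 TPM in wild-type clone 15 and 83.3 ± 20.8 TPM in clone 22. Mcu RNA was therefore higher in knockout-labelled clone 17 than in the wild-type clones and did not separate the 1151 groups. RNA level alone does not settle whether MCU protein was made, and the labels are kept. Of 16 ductal tumour epithelium genes, Krt8, Krt18 and Krt19 were each at 379.9 TPM or more in every library. Spint2 (116.1 to 634.3 TPM) and Krt7 (32.1 to 550.4 TPM) were among the others of that list expressed in every library. Some genes of the list were low. Epcam stayed between 0 and 1.68 TPM, and Onecut1 and Cftr at or below 1.18 TPM. Cldn4 ranged from 0 to 7.54 TPM and Cldn7 from 0 to 17.2 TPM. All 12 fibroblast markers were below 1 TPM in every library, and so were 12 of 16 leukocyte markers. The 16 leukocyte markers summed to 1.43 to 3.86 TPM in 1151 and 9.74 to 16.8 TPM in 2838 libraries. Fcgr3 (0 to 12.1 TPM) and Cd53 (0.156 to 5.07 TPM) reached the highest levels among them. Wild-type clone 22 replicate 3 stood apart, with 10760 genes at 1 TPM or more against at least 11207 in every other library, and tests between 2838 clones are given with and without it.

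Of the 37 genes, 19 averaged at least 5 TPM in some group, 13 stayed below 1 TPM in every library and 4 (Itga8, Itgad, Itgax and Lama1) were listed at 0 throughout. In both lines Itgb1, the beta chain shared by most matrix receptors, was the highest beta chain, at 211 to 482 TPM over the 18 libraries. Itga3 (92.8 to 367 TPM) and Itga6 (97.0 to 282 TPM) were the highest alpha chains, and Lama5 carried between 97.8% and 100% of the laminin alpha TPM. The 5 alpha chains of leukocyte integrins, Itgad, Itgae, Itgal, Itgam and Itgax, summed to at most 0.339 TPM in any library. Itgb8, Itga9, Itga11, Lama2 and Lamc3 each stayed at or below 0.424 TPM, Itga10 between 0.179 and 1.003 TPM and Itga4 between 0.217 and 1.87 TPM. Lama3 reached 1.29 to 1.81 TPM in clone 17 and was at or below 0.0937 TPM in every other group, although its trimer partner Lamb3 was expressed in all of them. The genes at 1 TPM or more in at least 3 libraries were tested, which left 19 genes in 1151 and 21 in 2838. Calls were made with limma on log2(TPM + 1), at an adjusted p under 0.05 over all genes tested.

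In line 1151, 16 of the 19 tested genes were called, 9 higher and 7 lower in knockout-labelled cells. Higher were Lamb3, Itga2, Itga5, Itga3, Lamb1, Itgav, Lama5, Itgb6 and Itgb1. Lower were Itga7, Itga1, Itgb4, Itgb5, Itgb3, Itga6 and Lamc1. Calls were common in this line, since 34.0% of the 11630 genes tested were called higher and 27.0% lower. The median log2 change was 0.24 over the 19 genes and 0.05 over all genes. The called genes were those whose 2 groups did not overlap in any library, which also held for 37.4% of all genes upwards and 29.8% downwards.

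**Figure D1:**
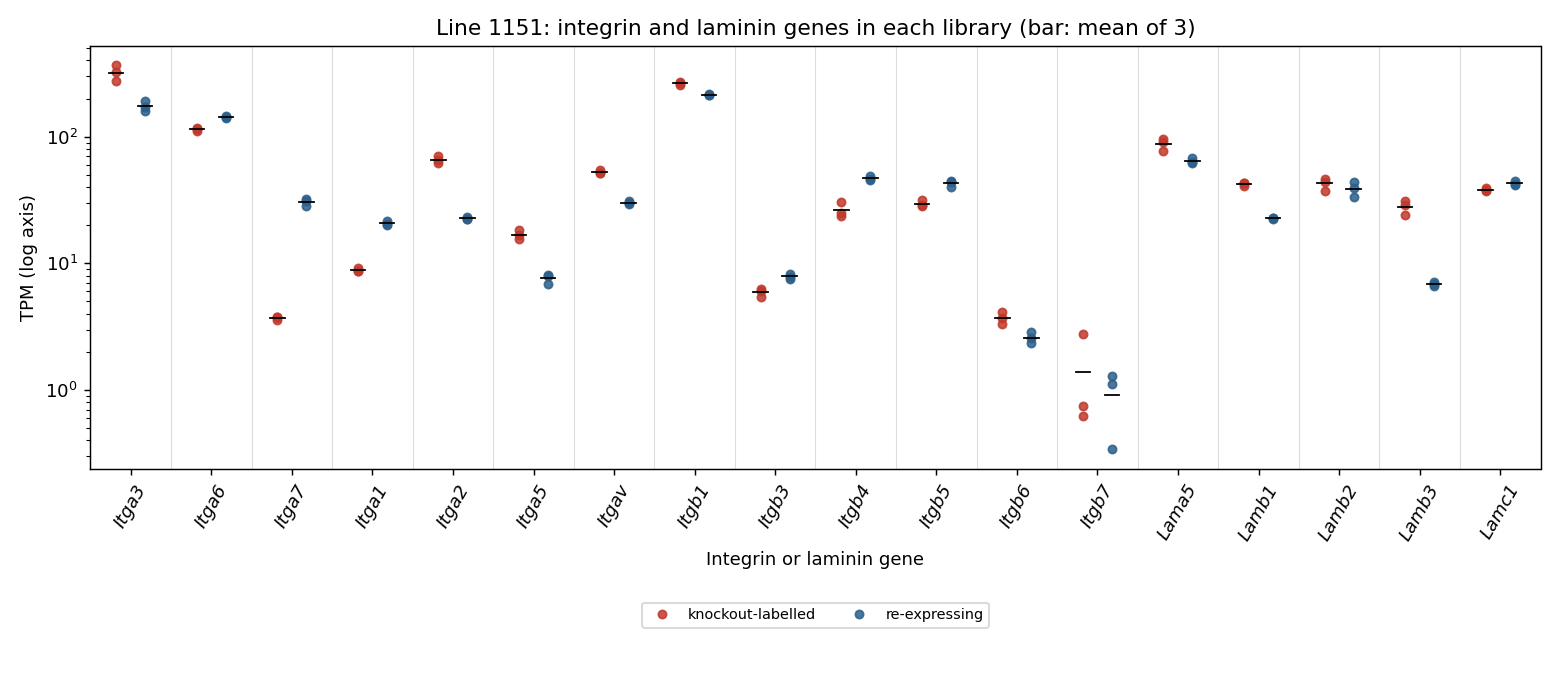
TPM of 18 integrin and laminin genes that averaged at least 5 TPM in some group, in each library of line 1151, on a log axis. Red points are 3 knockout-labelled libraries and blue points 3 re-expressing libraries, with a bar at each mean. Itga7 lies near 3.7 TPM in knockout-labelled and near 31 TPM in re-expressing libraries, and Lamb3 shows the opposite order.

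The laminin-binding alpha chains moved apart. Itga7, best known from muscle, where it pairs with Itgb1, had 3.78, 3.59 and 3.78 TPM in knockout-labelled libraries, against 32.05, 31.1 and 28.55 TPM in re-expressing libraries. The groups lay 8.22-fold apart in mean TPM with no overlap (log2 change −2.74, SE 0.07, adjusted p = 6.38e-07). Itga7 lies on chromosome 10 (mm10, 128933818 to 128958282, plus strand). Its span overlaps Mettl7b on the opposite strand, and whether the libraries keep strand is not given in the sources used here. Itga3, the chain of the main epithelial laminin receptor outside hemidesmosomes, had 367, 322 and 273.5 TPM in knockout-labelled and 190.0, 158 and 172 TPM in re-expressing libraries. Every knockout-labelled library was above every re-expressing one (log2 change 0.88, SE 0.12, adjusted p = 0.00068). Itga6 went the other way by a smaller step, with 118, 110.2 and 116 TPM in knockout-labelled against 140.4, 146 and 144 TPM in re-expressing libraries (log2 change −0.32, SE 0.05, adjusted p = 0.00145). The sum of the 3 chains still made up 73.5% to 76.4% of alpha chain TPM in knockout-labelled and 80.6% to 81.3% in re-expressing libraries.

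Itga1 and Itga2, which encode the collagen receptor chains, are neighbours on chromosome 13 and moved in opposite directions. Itga2 had 70.8, 65.0 and 62.3 TPM in knockout-labelled libraries, against 22.5, 22.6 and 23.2 TPM in re-expressing libraries (log2 change 1.497, SE 0.06, adjusted p = 4.48e-06). Itga1 had 8.68, 9.15 and 8.66 TPM in knockout-labelled libraries, against 21.7, 20.3 and 20.2 TPM in re-expressing libraries (log2 change −1.14, SE 0.07, adjusted p = 1.56e-05). In re-expressing cells the levels of these chains nearly matched, while in knockout-labelled cells Itga2 stood far above Itga1. Both genes lie on the minus strand in mm10, Itga2 from 114833081 to 114932100 and Itga1 from 114953096 to 115101964, with 21.0 kb between them. Pelo lies within the Itga1 span.

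The starts of these genes are shown because the neighbours moved apart, and those of Lamb3 because it rose most. RefSeq windows (GRCm38.p6) of 300 bases around a gene's start were found for 23 of the 37 genes, in 26 windows. Each was searched on both strands for TGANTCA (the AP-1 motif), GGAATG (TEAD), CAGGTG (an E-box read by Zeb and Snail repressors) and GGGCGG (the GC box), with overlaps allowed. Matches are in capitals, and the windows are printed from 5′ to 3′ on the gene's strand.
Itga2 (chr13:114932051-114932350, minus strand): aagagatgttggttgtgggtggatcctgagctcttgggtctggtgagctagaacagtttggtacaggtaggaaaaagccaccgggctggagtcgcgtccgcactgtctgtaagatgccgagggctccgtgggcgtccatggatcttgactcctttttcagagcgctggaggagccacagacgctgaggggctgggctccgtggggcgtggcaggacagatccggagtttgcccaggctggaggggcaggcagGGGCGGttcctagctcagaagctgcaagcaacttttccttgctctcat
Itga1 (chr13:115101915-115102214, minus strand): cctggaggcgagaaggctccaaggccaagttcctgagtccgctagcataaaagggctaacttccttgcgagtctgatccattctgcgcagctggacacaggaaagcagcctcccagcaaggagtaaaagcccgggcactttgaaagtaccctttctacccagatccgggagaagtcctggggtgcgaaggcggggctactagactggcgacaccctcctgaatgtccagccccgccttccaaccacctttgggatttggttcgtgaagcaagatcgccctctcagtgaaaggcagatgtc
Lamb3, upstream start (chr1:193301744-193302043, plus strand): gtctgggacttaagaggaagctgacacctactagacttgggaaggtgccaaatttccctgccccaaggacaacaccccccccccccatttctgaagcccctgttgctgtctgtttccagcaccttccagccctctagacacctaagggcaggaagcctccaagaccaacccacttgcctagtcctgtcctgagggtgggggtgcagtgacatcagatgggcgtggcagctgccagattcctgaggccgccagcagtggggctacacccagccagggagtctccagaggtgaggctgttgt
Lamb3, downstream start (chr1:193301993-193302292, plus strand): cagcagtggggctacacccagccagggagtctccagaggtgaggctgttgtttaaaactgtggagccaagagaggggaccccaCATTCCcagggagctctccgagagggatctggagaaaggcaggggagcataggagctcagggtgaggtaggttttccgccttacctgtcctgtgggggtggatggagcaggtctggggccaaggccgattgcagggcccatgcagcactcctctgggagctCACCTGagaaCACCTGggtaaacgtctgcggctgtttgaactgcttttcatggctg

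The Itga2 window held 1 GC box and the Itga1 window none of the 4 motifs. The upstream Lamb3 window held none, and the downstream one held 1 GGAATG and 2 CAGGTG matches. Over all 32851 windows, TGANTCA occurred in 7.8%, GGAATG in 14.7%, CAGGTG in 20.2% and GGGCGG in 35.7%. Among the 26 windows of integrin and laminin genes, TGANTCA occurred in 3, GGAATG in 3, CAGGTG in 8 and GGGCGG in 12. A match is a string of letters and says nothing about binding.

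The RGD-binding alpha chains were both higher in knockout-labelled cells. Itga5, the fibronectin receptor chain, had 15.6, 18.3 and 16.8 TPM in knockout-labelled and 8.10, 6.83 and 7.92 TPM in re-expressing libraries (log2 change 1.05, SE 0.09, adjusted p = 9.53e-05). Itgav, which pairs with several beta chains, had 54.7, 51.6 and 52.0 TPM in knockout-labelled and 30.0, 29.2 and 31.0 TPM in re-expressing libraries (log2 change 0.79, SE 0.06, adjusted p = 3.3e-05). No library of one group reached the range of the other for either gene. Itga5 lies on chromosome 15, where the median change of the 452 genes tested was 0.45, and its change was 0.61 above that median.

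Among beta chains, Itgb1 and Itgb6 were higher and Itgb4, Itgb5 and Itgb3 lower in knockout-labelled cells. Itgb4, the hemidesmosome chain that pairs with Itga6, had 23.6, 24.8 and 30.4 TPM in knockout-labelled and 45.8, 46.25 and 49.15 TPM in re-expressing libraries (log2 change −0.82, SE 0.10, adjusted p = 0.000388). Itgb5, a vitronectin receptor chain, had 28.7, 28.5 and 31.8 TPM in knockout-labelled and 45.1, 44.1 and 40.3 TPM in re-expressing libraries (log2 change −0.53, adjusted p = 0.000728). Itgb3, another partner of Itgav, averaged 5.90 ± 0.45 TPM in knockout-labelled and 7.87 ± 0.31 TPM in re-expressing libraries (log2 change −0.37, adjusted p = 0.00844). Itgb5 and Itgb3 were thus lower where Itgav itself was higher, while Itgb6, also a partner of Itgav, was higher with it. Itgb1 had 267, 271 and 257.5 TPM in knockout-labelled and 213, 214 and 216 TPM in re-expressing libraries (log2 change 0.31, adjusted p = 0.00133). Itgb6, an epithelial chain that binds latent TGF-beta with Itgav, averaged 3.72 ± 0.38 TPM in knockout-labelled and 2.59 ± 0.27 TPM in re-expressing libraries (log2 change 0.39, adjusted p = 0.0172). Itgb7 overlapped between the groups and was not called (1.38 ± 1.2 TPM in knockout-labelled and 0.912 ± 0.50 TPM in re-expressing libraries). Itgb1 made up 77.7% to 81.0% of beta chain TPM in knockout-labelled and 67.5% to 68.2% in re-expressing libraries. Itgb4 made up 7.09% to 9.18% in knockout-labelled and 14.5% to 15.5% in re-expressing libraries.

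Of the laminin chains, Lamb3 changed most. Lamb3, on chromosome 1 (193207699 to 193343878, plus strand), had 24.1, 28.8 and 31.3 TPM in knockout-labelled libraries, against 7.18, 6.63 and 6.83 TPM in re-expressing libraries. The groups lay 4.08-fold apart with no overlap (log2 change 1.88, SE 0.10, adjusted p = 1.21e-05). G0s2 and Hsd11b1 lie within its span on the other strand. This span begins upstream of both RefSeq start windows of Lamb3 shown above. Lamb1, the beta chain of early basement membranes, had 42.75, 40.6 and 42.9 TPM in knockout-labelled and 22.8, 22.5 and 22.65 TPM in re-expressing libraries (log2 change 0.87, SE 0.05, adjusted p = 1.96e-05). Lama5, the main epithelial alpha chain, averaged 88.0 ± 10.0 TPM in knockout-labelled and 64.5 ± 3.0 TPM in re-expressing libraries (log2 change 0.44, adjusted p = 0.00484). Lamc1, which joins most laminin trimers, was slightly lower (38.1 ± 1.1 TPM in knockout-labelled and 42.9 ± 1.5 TPM in re-expressing libraries, adjusted p = 0.0373). Lamb2 was not called, at 42.7 ± 4.6 TPM in knockout-labelled and 38.8 ± 5.0 TPM in re-expressing libraries. Lamb3 took 21.7% to 28.0% of laminin beta TPM in knockout-labelled and 9.13% to 11.3% in re-expressing libraries.

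With no filter on low genes, 33 of the 37 were tested in 1151 and 20 called, 13 higher and 7 lower, where 22.7% of 19031 genes were higher and 16.2% lower. The 4 added calls were Lama4, Itgb2, Itga2b and Lamc3, all higher in knockout-labelled cells and all low. Lama4, the alpha chain of vessel walls, had 0.803, 0.691 and 1.05 TPM in knockout-labelled and 0, 0.0572 and 0 TPM in re-expressing libraries (log2 change 0.85, adjusted p = 0.000557). Itgb2, the leukocyte beta chain, had 0.716 to 0.993 TPM in knockout-labelled and 0.0790 to 0.132 TPM in re-expressing libraries (0.77, adjusted p = 0.000545). Itga2b, the platelet alpha chain, had 0.667 to 1.29 TPM in knockout-labelled and 0.273 to 0.295 TPM in re-expressing libraries (0.65, adjusted p = 0.00935). Lamc3 had 0.266, 0.424 and 0.224 TPM in knockout-labelled libraries and was listed at 0 in re-expressing libraries. It entered this fit only through knockout-labelled libraries, so its difference is given with no test, though the count takes it in. The leukocyte list summed to 1.43 to 3.24 TPM in knockout-labelled and 1.70 to 3.86 TPM in re-expressing libraries, with Cd3e, Tyrobp, C1qa, C1qb and Nkg7 at 0 in all 18. Among endothelial and platelet genes, Kdr averaged 8.51 TPM in knockout-labelled and 0.767 TPM in re-expressing libraries, while Cdh5 averaged 0.00568 TPM in knockout-labelled and 4.93 TPM in re-expressing libraries. Pecam1, Tek and Emcn stayed at or below 0.529 TPM. Ppbp, Esam and Pf4 averaged at most 0.574 TPM in the 1151 groups. In 2838 libraries Ppbp reached 6.99 TPM, Esam 3.99 TPM and Pf4 3.66 TPM. The part of other cells in these low values was not tested.

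Genes that work with integrins and laminins were described from lists, each to be read against the 34.0% of all genes that were higher and the 27.0% that were lower. Of focal adhesion genes 60.6% were higher and 12.1% lower, of ligands 57.1% were higher and 35.7% lower, and of basement membrane partners 53.8% were higher and 23.1% lower. Of 33 tested focal adhesion and integrin activation genes, 20 were higher and 4 lower in knockout-labelled cells. Dab2, an endocytic adaptor, averaged 9.11 TPM in knockout-labelled and 0.369 TPM in re-expressing libraries. It passed the filter on low genes only through knockout-labelled libraries, so its difference is given with no test. The counts and shares of the lists take such genes in. Fermt2, a kindlin that activates integrins, averaged 35.1 TPM in knockout-labelled and 9.16 TPM in re-expressing libraries (log2 change 1.83). Lpp, a zyxin family adaptor, was also higher (1.45). Vasp, an actin filament elongation factor at focal adhesions, fell by 1.83 on the log2 scale. Of 14 tested ligands other than laminins, 8 were higher and 5 lower, with Ccn1 (log2 change 3.17) and Fn1 (2.71) among the rises. Thbs1 averaged 30.2 TPM in knockout-labelled and 0.137 TPM in re-expressing libraries. Ccn3 averaged 10.05 TPM in knockout-labelled and 0.801 TPM in re-expressing libraries. Thbs1 and Ccn3 also passed the filter only through knockout-labelled libraries, so their differences are given with no test. Fn1, the ligand of Itga5, averaged 88.3 TPM in knockout-labelled and 12.6 TPM in re-expressing libraries. Of 13 basement membrane partners, 7 were higher and 3 lower, with Fbln1 (2.06) and Sparc (1.07) among the rises on the log2 scale. Col7a1, the anchoring fibril collagen that binds the Lamb3 laminin, was higher, at 20.4 TPM in knockout-labelled and 4.68 TPM in re-expressing libraries. Nid2, which links laminin to collagen networks, averaged 0.595 TPM in knockout-labelled and 6.575 TPM in re-expressing libraries. It passed the filter through re-expressing libraries, so its difference is given with no test.

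The other adhesion lists were mixed. Higher and lower shares were 14.3% and 57.1% for laminin receptors, 9.09% and 36.4% for glycosylation, 27.3% and 54.5% for membrane partners, and 80.0% and 10.0% for mesenchymal genes. In hemidesmosomes, the plakins Dst (log2 change 1.11) and Plec (0.68) were higher and the tetraspanin Cd151 lower (−0.47). Of 7 laminin receptors other than integrins, Sdc3 was higher (1.76), while Bcam (−1.25), Sdc1 (−0.44), Dag1 (−0.41) and Sdc4 were lower, Sdc4 falling outside the rule for named genes. Of 11 genes that glycosylate dystroglycan, 1 was higher (Rxylt1, 0.49) and 4 lower, among them Pomk (−0.29). Of 11 membrane partners, 3 were higher and 6 lower. Cav1, the main caveolar protein, was at 367 TPM in knockout-labelled and 11.1 TPM in re-expressing libraries (4.93), with Slc3a2 (1.58) and Bsg (0.65) also higher and the tetraspanin Cd82 lower (−1.35). Of 10 tested mesenchymal genes, 8 were higher and 1 lower, with Cdh2 (2.05) and Zeb2 (1.02) among the rises. The higher count and share take in genes that passed the filter only through knockout-labelled libraries. Of 12 epithelial genes, 6 were higher and 5 lower, with Krt7 (2.55) up and Spint2 (−1.91) and Elf3 (−1.89) down. Cldn4, counted as higher, averaged 6.15 TPM in knockout-labelled and 0.259 TPM in re-expressing libraries. It passed the filter only through knockout-labelled libraries, so its difference is given with no test. These epithelial and mesenchymal genes moved with the integrins in the same 6 libraries, and their part in them was not tested.

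**Figure D2:**
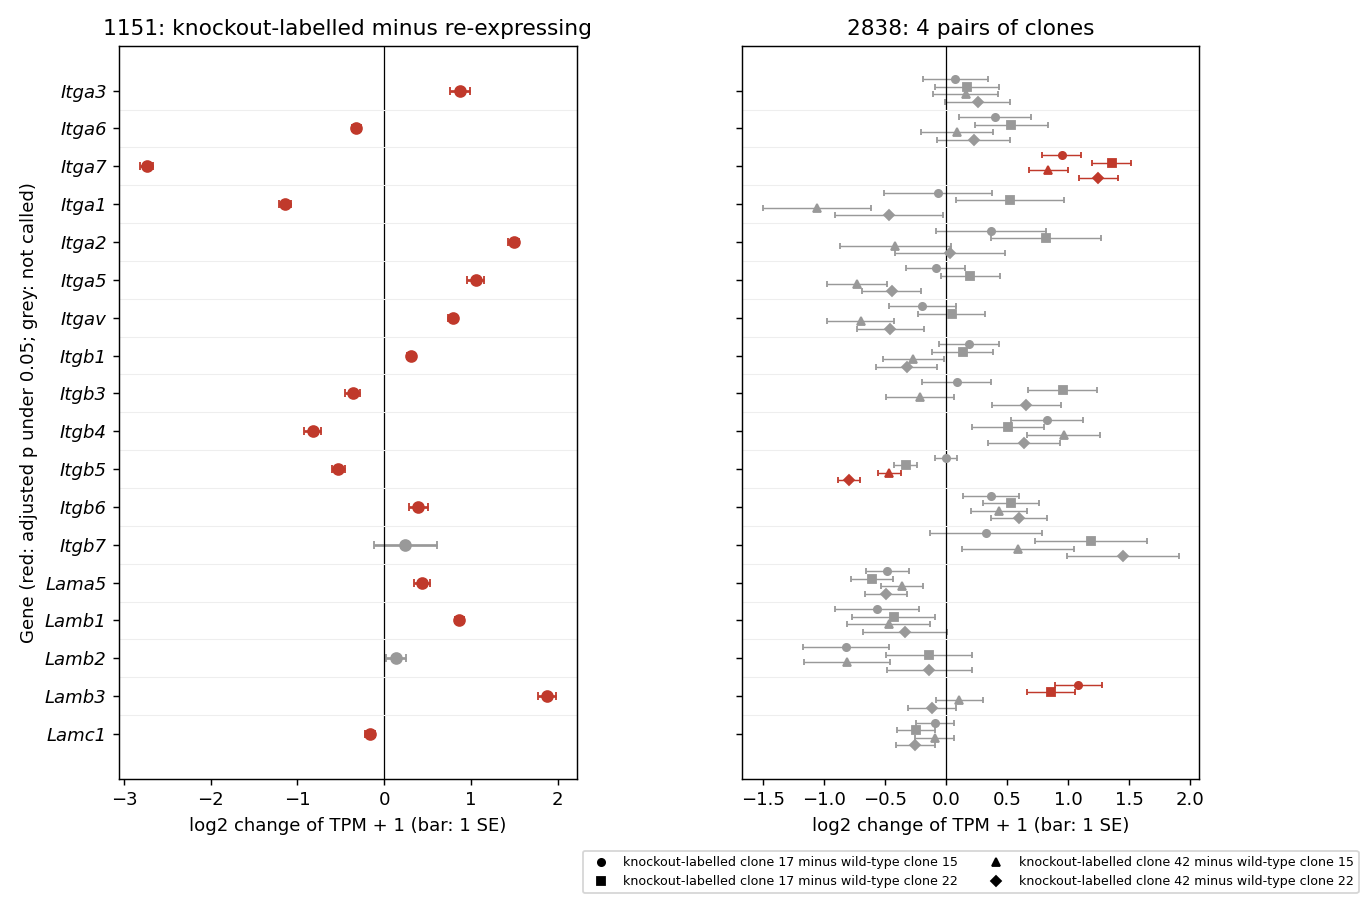
Log2 change of TPM + 1 with 1 standard error for the same 18 genes. The left panel shows 1151 knockout-labelled minus re-expressing, the right panel each of the 4 pairs of a 2838 knockout-labelled clone minus a wild-type clone. Red marks an adjusted p under 0.05. Itga7 lies at −2.74 in 1151 and between 0.84 and 1.36 in all 4 pairs of 2838.

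In line 2838, Itga7 was higher in both knockout-labelled clones than in both wild-type clones. With the clone as the unit, 2 clone means against 2, none of the 21 tested genes was called, while 0.0254% of the 11795 genes were called higher and 0.0509% lower. At an unadjusted p under 0.05 this test had 5 of the 21 genes and 662 of all genes. A count less strict than the clone means, since libraries of a clone serve as replicates, took genes that passed in each of the 4 knockout-labelled and wild-type clone pairs with the same direction (the all-pairs count). It gave 2 genes higher, Itga7 among them, and 0 lower, where 0.492% of all genes were higher and 0.517% lower. It tests these clones, not knockout in general.

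Itga7 had 31.4, 30.7 and 28.0 TPM in clone 17 and 26.9, 27.1 and 29.2 TPM in clone 42. It had 11.8, 18.3 and 15.8 TPM in wild-type clone 15 and 10.3, 10.7 and 12.3 TPM in clone 22. All knockout-labelled libraries were above all wild-type libraries, and the largest adjusted p of the 4 pairs was 0.00553. The mean of the clone means was 28.9 TPM in knockout-labelled and 13.2 TPM in wild-type clones (log2 change 1.10, SE 0.26, adjusted p = 0.290). Without wild-type clone 22 replicate 3 the largest adjusted p of the pairs was 0.00076, and the clone-mean log2 change was 1.13 (adjusted p = 0.479). The all-pairs call held with any 1 library or any 1 clone left out, clone 17 with its high Mcu RNA included, at log2 changes of 0.89 to 1.31, but not with a minimum log2 change of 1. Itga7 held 4.32% to 5.88% of alpha chain TPM in knockout-labelled clones and 1.54% to 4.73% in wild-type clones, the last value being that of clone 22 replicate 3.

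Lamc1, the gamma chain of most laminins, stayed at 50.4 to 79.6 TPM in knockout-labelled and 64.7 to 83.6 TPM in wild-type clones and was not called.

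**Figure D3:**
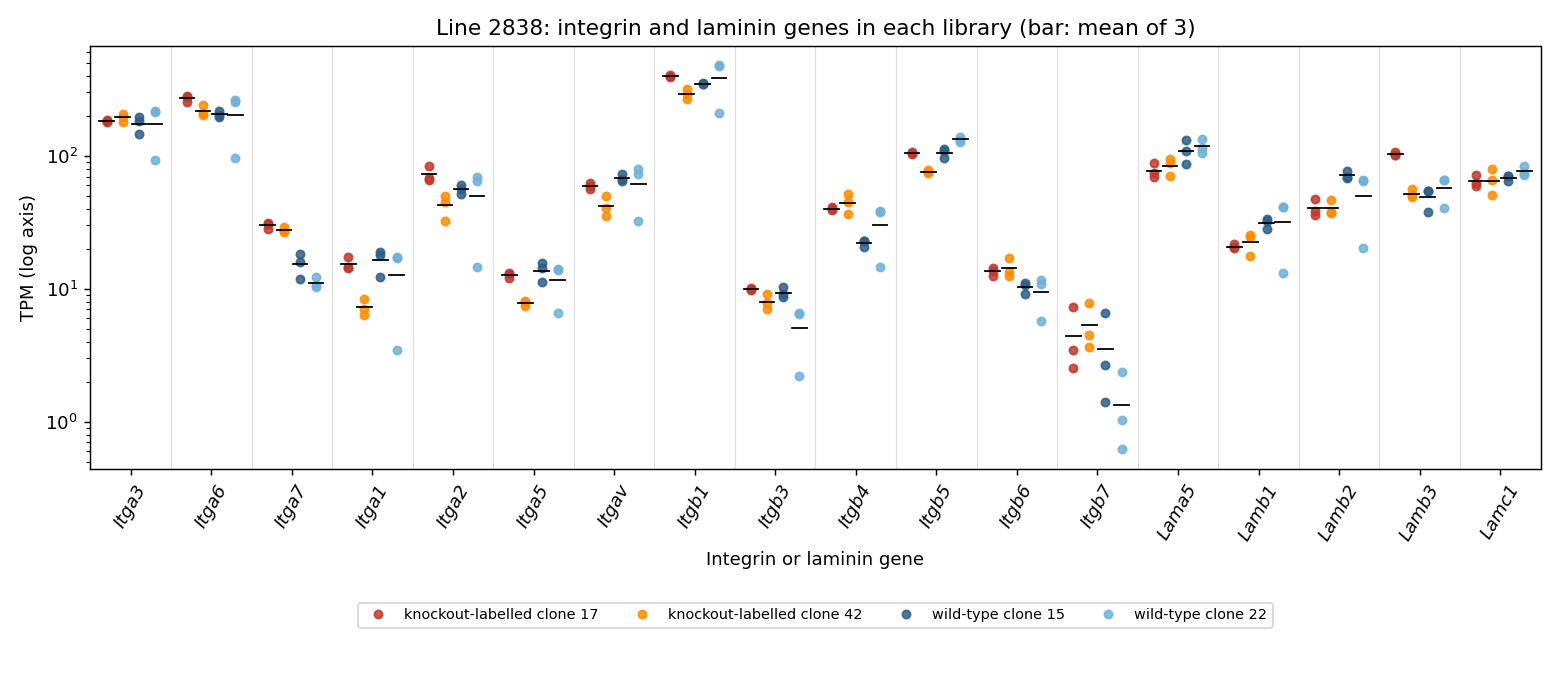
TPM of the same 18 genes in each library of line 2838, on a log axis, with a bar at each mean. Red and orange points are knockout-labelled clones 17 and 42, dark and light blue points wild-type clones 15 and 22. Itga7 and Itgb6 separate knockout-labelled from wild-type clones in all 12 libraries, and 1 library of clone 22 lies below the rest for most genes.

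Itgb6 separated all 12 libraries without being called. It had 12.6, 14.4 and 13.7 TPM in clone 17 and 17.0, 13.3 and 12.5 TPM in clone 42. It had 10.99, 9.10 and 10.7 TPM in wild-type clone 15 and 11.7, 10.8 and 5.73 TPM in clone 22. The gap was narrow, 12.5 against 11.7 TPM, and the largest adjusted p of the 4 pairs was 0.374. Separation in all 12 libraries was met by 3.53% of all genes upwards and 1.52% downwards. Itgb4 had 36.6 to 51.8 TPM in knockout-labelled clones, against 20.6 to 23.0 TPM in clone 15 and 14.6 to 38.5 TPM in clone 22, and was not called (log2 change 0.74, adjusted p = 0.631). The distance from clone 22 rested on its replicate 3. Without that library Itgb4 averaged 40.0 TPM in clone 17 and 44.4 TPM in clone 42, against 38.2 TPM in clone 22, and clone 17 minus clone 22 was 0.07 on the log2 scale, against 0.51 with it. Itgb6 stayed uncalled without it (clone-mean log2 change 0.34, largest adjusted p of the pairs 0.232). Itgb7, an alpha 4 partner that is mostly of leukocytes, ranged from 2.55 to 7.81 TPM in knockout-labelled and 0.620 to 6.56 TPM in wild-type clones and was not called with or without the library.

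The knockout-labelled clones also differed from each other. In clone 42 against clone 17, 0 of the 21 genes were higher and 3 lower, where 8.23% of all genes were higher and 8.99% lower. Lamb3 had 56.2, 51.2 and 48.7 TPM in clone 42 and 102, 106 and 101.2 TPM in clone 17 (log2 change −0.98, SE 0.19, adjusted p = 0.00574). Itgb5 had 78.9, 75.3 and 74.2 TPM in clone 42 and 104, 107.5 and 105 TPM in clone 17 (log2 change −0.47, adjusted p = 0.00575). Both genes were also called without wild-type clone 22 replicate 3, at an adjusted p of 0.000159 for Lamb3 and 0.000306 for Itgb5. Lama3, the other of the 3, passed the filter on low genes only through clone 17, so its difference is given with no test. It had 0.0131, 0.0111 and 0.0450 TPM in clone 42 and 1.52, 1.29 and 1.81 TPM in clone 17. Wild-type clones had 37.6 to 66.2 TPM of Lamb3, which overlapped clone 42 but not clone 17. Between the wild-type clones, 22 minus 15, none of the 21 genes was called, while 0.577% of all genes were higher and 1.34% lower.

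**Figure D4:**
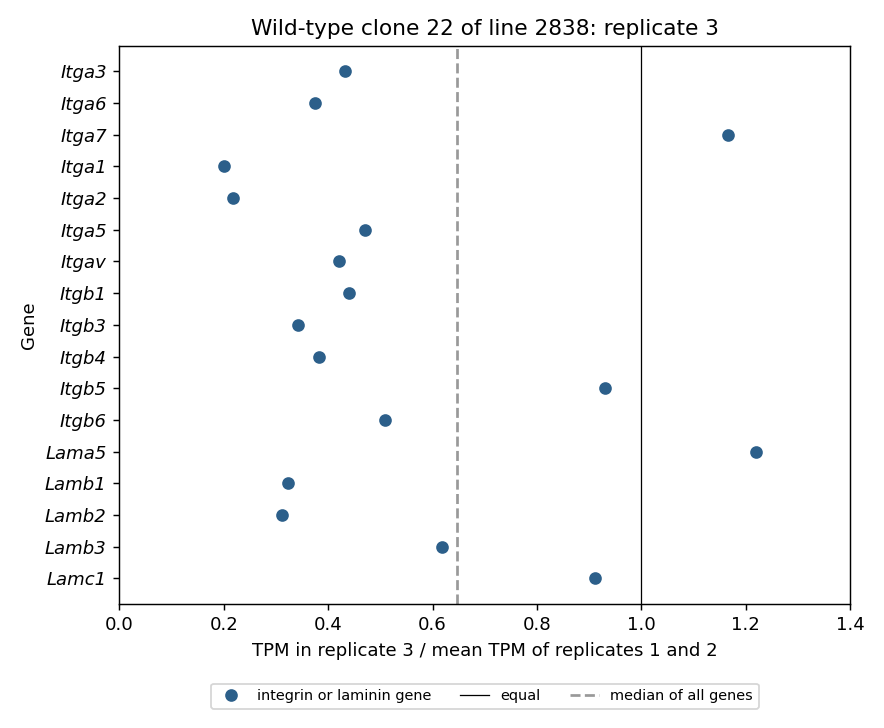
TPM in replicate 3 of wild-type clone 22 divided by the mean of replicates 1 and 2, for 17 genes at a mean of at least 5 TPM in those 2 libraries. The dashed line is the median of all genes, 0.647. Itga7 and Lama5 lie above 1 and Itga1 and Itga2 near 0.2.

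The library that stood apart was low for most of these genes. In wild-type clone 22 replicate 3, 16 of 18 genes were lower than in both other libraries of the clone, with a median ratio of 0.436. Over 9627 genes the median ratio was 0.647, and 75.0% were lower than in both. Itga1 (ratio 0.201), Itga2 (0.218) and Lamb2 (0.311) fell furthest, while Itga7 (1.17) and Lama5 (1.22) were above the others, and Itgb5 (0.931) and Lamc1 (0.911) close to them. The direction of the Itga7 result was the same with and without this library, whose Itga7 value was the highest of its clone.

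Without that library the spread of the 2838 fit was smaller and more genes were called. The all-pairs count was then 2 higher, Itga7 among them, and 2 lower, Lamb1 and Lamb2, where 1.48% of all genes were higher and 2.41% lower. Lamb1 had 20.2 to 21.7 TPM in clone 17 and 17.65 to 25.4 TPM in clone 42, against 28.3 to 33.3 TPM in clone 15 and 41.1 and 41.15 TPM in replicates 1 and 2 of clone 22 (log2 change −0.71, largest adjusted p of the 4 pairs 0.0137). Lamb2, a beta chain of mature basement membranes, had 35.6 to 47.2 TPM in clone 17 and 37.3 to 46.5 TPM in clone 42, against 67.9 to 77.05 TPM in clone 15 and 65.7 and 64.4 TPM in replicates 1 and 2 of clone 22 (log2 change −0.75, largest adjusted p 0.00443). Both groups of clones were apart for both genes once the library was left out, and replicate 3 itself had 13.25 TPM of Lamb1 and 20.3 TPM of Lamb2.

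The comparisons within a genotype moved as well. Without the library, clone 42 against clone 17 had 12 of 21 genes lower and 0 higher, where 20.1% of all genes were higher and 21.4% lower. Among these 12 were Itga1, Itga2, Itga4, Itga5, Itga6, Itgav, Itgb1, Itgb3, Itgb5 and Lamb3, and the count takes in Lama3, which was tested only through its level in clone 17. Itga1 averaged 7.29 TPM in clone 42 and 15.4 TPM in clone 17 (log2 change −0.99, adjusted p = 0.000609), and Itga2 averaged 42.4 TPM in clone 42 and 73.0 TPM in clone 17 (−0.78, adjusted p = 0.00173). Itgb1 averaged 291 TPM in clone 42 and 400 TPM in clone 17 (−0.46, adjusted p = 0.000328). Clone 22 minus clone 15 then had 5 genes higher (Itga6, Itgb1, Itgb4 and Itgb5 among them) and 1 lower (Itgb3), where 4.22% of all genes were higher and 2.64% lower.

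Chain usage summed these differences up by group. Lamb3 held 60.6% to 64.5% of laminin beta TPM in clone 17, 43.9% to 46.9% in clone 42 and 28.1% to 35.0% in clone 15. In clone 22 it held 38.2% and 38.5% in replicates 1 and 2 and 54.9% in replicate 3. Itga6 exceeded Itga3 in every 2838 group mean, with 39.5% to 43.6% of alpha chain TPM in knockout-labelled clones and 35.0% to 39.4% in wild-type clones. In 1151, Itga3 was the larger share, 51.1% to 57.3% in knockout-labelled and 38.1% to 42.6% in re-expressing libraries. The ratio of Itga6 to Itgb4, which pair in hemidesmosomes, was 4.70 to 7.12 in 2838 knockout-labelled and 6.64 to 9.51 in wild-type clones, and 3.80 to 5.00 in 1151 knockout-labelled and 2.93 to 3.15 in re-expressing libraries.

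**Figure D5:**
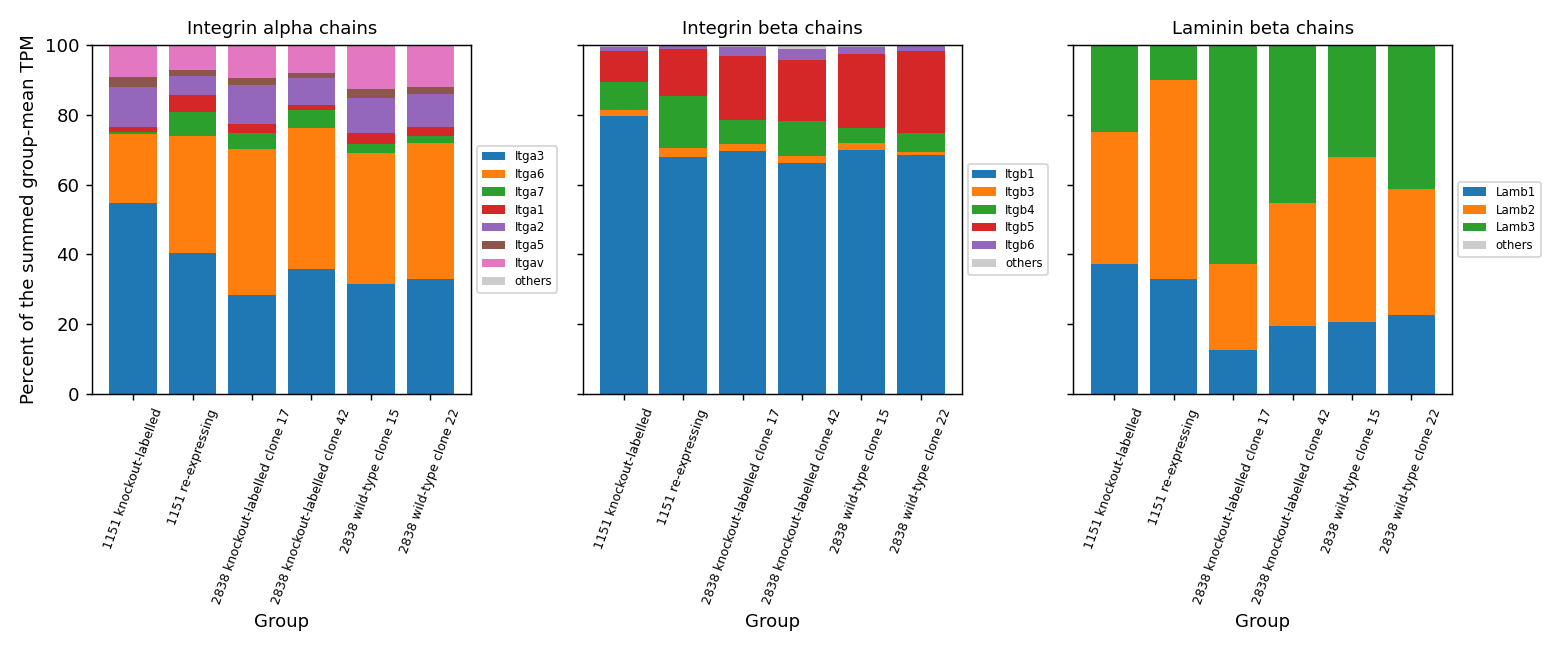
Share of each chain in the summed group-mean TPM of integrin alpha, integrin beta and laminin beta chains, in percent, for the 6 groups. Itga7 makes up 0.63% of alpha chain TPM in 1151 knockout-labelled and 7.12% in re-expressing cells. Lamb3 makes up more of laminin beta TPM in clone 17 than in any other group.

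Few partner genes were called across the 2838 clones. By clone means, 0 genes were called in each of the 12 lists of partners and markers. In the all-pairs count, 2 of 12 tested ligands were lower, Fn1 and Spp1, both secreted RGD proteins. Fn1 averaged 29.7 TPM in clone 17 and 17.5 TPM in clone 42, against 193 TPM in clone 15 and 96.5 TPM in clone 22 (log2 change −2.51). Spp1 averaged 1528 TPM in clone 17 and 2154 TPM in clone 42, set against 3707 TPM in clone 15 and 3502 TPM in clone 22 (−0.98). In 1151, Fn1 had been higher in knockout-labelled cells. The all-pairs calls in the epithelial and mesenchymal lists were Krt7, higher (log2 change 0.95), and Fn1 again, where 0.492% of all genes were higher and 0.517% lower. The count was 0 in the other 9 lists with all libraries.

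Without wild-type clone 22 replicate 3, Fn1 (−2.69), Spp1 (−1.04) and Krt7 (0.93) were called again, and more list genes passed, where 1.48% of all genes were higher and 2.41% lower. Of the 12 ligands 5 were then lower and 0 higher. Of 33 focal adhesion genes 1 was higher and 2 lower, and 2 of 14 basement membrane partners, 1 of 3 hemidesmosome partners and 2 of 8 laminin receptors were lower. Of 11 membrane partners 1 was higher, as were 3 of 12 epithelial genes and 1 of 3 leukocyte markers. The mesenchymal count stayed at 1, and no gene was called in the glycosylation, endothelial or fibroblast lists.

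The effects in the lines were set against each other as the 1151 difference minus the 2838 difference, fitted on the 6 group means. The spread in this fit came from the 2838 clones alone, and the 1151 groups were assumed to vary like them. None of the 21 genes was called, while 0.658% of the 12458 genes were called higher and 0.441% lower, and 42 of these 137 were at 0 in every 2838 library. At an unadjusted p under 0.05 there were 6 of the 21 genes and 1738 of all genes. Itga7 had the largest difference, −3.84 (SE 0.39, adjusted p = 0.0536), with the knockout-labelled group lower in all 1151 libraries and higher in all 2838 libraries. Itgb4 (−1.56, adjusted p = 0.175) and Lamb1 (1.32, adjusted p = 0.177) also missed the threshold. Genotype, vector and line history differ between the lines, so a difference between them cannot be told apart from batch.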

How the data were processed

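RNA of 18 libraries was sequenced as polyA RNA. The authors deposited TPM values per gene symbol, for which the submitters' processing notes name Salmon, DESeq2 and mm10; versions and annotation are not given in the sources used here. Read depth is lost in TPM, so no counting interval is given. From these values, log2(TPM + 1) was fitted with limma 3.58.1 (R 4.3.3), with a variance trend and Benjamini-Hochberg adjustment over all genes at 1 TPM in at least 3 libraries. The 1151 fit used 6 libraries, the clone-mean fit 4 clone means, the clone pairs 12 libraries, and the line difference 6 group means. Such folds understate changes of low genes. The fits were also run on simulated data with changes set only in well-expressed genes. Changes in low genes were thus not covered, and the outcome is not given here. The genes, lists and tests were chosen with earlier results of these data known. Genes at a mean of at least 5 TPM in a group got full values, and partner lists up to 4 called genes a line by size of change. Positions came from GENCODE (mm10). Alternatives were another pseudocount, filters, scaling, per-chromosome centring, no trend, a minimum change, other units, a replicate block and left-out libraries or clones. List counts under them were added after seeing the data. One laminin gene and some genes of the lists are not reported here by name; they stay in the counts.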

Additional observations from a re-analysis of the deposited data

Results flagged for a closer look

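The Itga7 difference between the lines was picked out because knockout-labelled libraries lay below all re-expressing libraries in 1151 and above all wild-type libraries in 2838. The 1151 minus 2838 difference of the log2 changes was −3.84 (SE 0.39), from −2.74 in 1151 and 1.10 in 2838. Its adjusted p of 0.0536, from limma on group means with spread from the 2838 clones alone, missed the threshold. Over the alternatives the difference ranged from −4.16 to −3.63. The lines differ in batch, vector and origin, which cannot be told apart here.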

How the results depend on the processing

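In 1151 the 16 calls became 20 with no filter, 5 with a minimum log2 change of 1 and 14 to 15 with 1 library left out. The replicate block gave 15 in 1151, 2 for all pairs, 3 for clone 42 minus 17 and 0 for clone 22 minus 15. Correlations of same-numbered deviations were −0.0266, −0.121 and −0.146 in 1151 and between −0.152 and 0.19 in 2838. Little shared deviation was thus seen, and the labels do not say whether same-numbered libraries were paired. The clone-mean count of 0 became 7 with 12 libraries as units, 1 without clone 17, 3 without clone 42, and stayed at 0 with any 1 library left out. The all-pairs count of 2 became 1 with no filter or without clone 15, 0 with a minimum log2 change of 1, 5 without clone 22, and 1 to 4 with 1 library left out. For clone 42 minus 17, the 3 calls became 7 under median-of-ratios scaling, 6 under quantile normalization, 1 with the minimum change, 10 without clone 22 and 2 to 12 with 1 library left out. For clone 22 minus 15, the count of 0 became 1 under quantile normalization and 0 to 6 with 1 library left out, and the log2 change of Itga6 ranged from −0.39 to 0.33 with 1 library left out, positive only without wild-type clone 22 replicate 3 (all libraries −0.14). The line difference count of 0 became 5 with no filter, 1 under median-of-ratios scaling, under quantile normalization, with per-chromosome centring or with a mean filter of 5 TPM, 10 with 18 libraries as units, with or without the replicate block, and 0 to 1 with 1 library left out. Under those 4 single-call settings the gene called was Itga7. The causes of these shifts were not tested. Among all gene values recomputed, Itga6 in clone 22 minus 15 was the only one called with the opposite sign. In 2838 each genotype label has 2 clones behind it.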
